A study of Homo sapiens with 12 samples.

Results

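CEBPB, CEBPD and CEBPE are the members of the C/EBP gene family, other than CEBPA and its neighbour CEBPG, that are linked to myeloid cells. C/EBP proteins are basic leucine zipper factors that pair with each other, or with AP-1 and ATF proteins, and bind the same short DNA sites. C/EBP-alpha, the product of CEBPA, commits progenitors to the granulocyte lineage. C/EBP-beta drives granulocyte production under stress and inflammatory genes in macrophages, C/EBP-delta is an acute phase and inflammatory factor, and C/EBP-epsilon is needed for the last steps of granulocyte maturation. The question for these loci is where chromatin around the paralogues of CEBPA was open with added p42, added p30 or an empty vector. It was asked without and with ER stress.

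ATAC-seq, in which the Tn5 transposase cuts open chromatin, was performed on KO-52, a line of human AML cells in which both CEBPA alleles are mutated, a background common to all groups. The cells carried an empty vector (EV), the full-length isoform p42 or the N-terminally truncated isoform p30, and received either DMSO or tunicamycin (Tm), an inhibitor of N-glycosylation that causes ER stress, at 2 µg/mL for 8 h. The paper describes p30 as the isoform left in typical mutants of both CEBPA alleles, so EV cells need not lack p30. For long-term expression in KO-52 cells the methods describe p42 and p30 fused to ERT2 and sorting for GFP, so that each line is a transduced population. To bring such fusions into the nucleus, the methods describe treatment with hydroxytamoxifen before an experiment, empty vector controls included. There were 2 replicates in each of 6 conditions, 12 libraries in all, but the peaks used here are 1 list per condition called on pooled replicates, so no value has a replicate spread and no difference was tested.

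A region here is a stretch of hg38 covered by a peak in at least 1 of the 6 lists, after peaks that overlap or touch were merged. All regions within 50 kb of the GENCODE gene body of a member were taken, which gave 62 of the 355394 regions of the series. Of these, 28 lay around CEBPB (chr20:50190830-50192668, plus strand), 12 around CEBPD (chr8:47736913-47738164, minus strand) and 22 around CEBPE (chr14:23117036-23120256, minus strand). Regions are named by the distance of their summit from the start site of the gene, minus for upstream and plus for downstream. Only 5 of the 62 lay within 1000 bp of a start site of their own gene, and 14 others lay that close to a start site of a neighbouring gene, so a region named for a C/EBP gene is not thereby its regulatory element.

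Peaks were compared by presence and by percentile, the rank of the peak by −log10 q among all peaks of its own list, from 0 for the weakest to 100 for the strongest. The tags at a summit, the fragments piled up at its highest point, are given with the estimated depth of each list, from 22200000 tags (EV DMSO) to 30000000 (p42 DMSO). The lists held 187704 to 254239 peaks, and the p42 DMSO list was both the deepest and the longest. Tags per depth (per 10000000 tags) correct for depth but not for how much of a library fell into peaks, and the median ratio of p42 DMSO to EV DMSO was 0.887 over all regions with a peak in both.

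Promoters of all 9 blood and myeloid marker genes examined (SPI1, RUNX1, MYB, PTPRC, CD33, CD34, KIT, MPO and CSF3R) were covered in each of the 6 lists, at percentiles from 48.5 to 97.3. Of 5 markers of other cell types, GATA1 and KRT14 had no peak in any list and ALB had one in 2 lists. CD3E and COL1A1 had one in all 6, at percentiles of 37 to 66.7 and of 82.7 to 87.5, which overlap those of the blood and myeloid markers.

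The sequences around the summits that carry the main differences are shown first. Each is 81 bases of the plus strand of hg38 around the summit or the motif match, except the last, which is cut to 30 bases. Capitals mark exact matches to 1 of 5 motifs searched within 100 bp of the summit on both strands. The first 3 regions stood higher in both p42 lists than in the 4 others, and held no match.
CEBPB −21.3 kb, chr20:50169478-50169558: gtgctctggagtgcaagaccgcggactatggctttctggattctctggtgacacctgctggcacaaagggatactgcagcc
CEBPB −11.4 kb, chr20:50179393-50179473: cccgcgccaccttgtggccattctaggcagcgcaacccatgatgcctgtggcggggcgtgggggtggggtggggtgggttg
CEBPB −4.4 kb, chr20:50186388-50186468: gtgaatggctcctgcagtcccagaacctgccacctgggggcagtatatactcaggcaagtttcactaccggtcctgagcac
CEBPB +35.8 kb, chr20:50226617-50226697, with an AP-1 match: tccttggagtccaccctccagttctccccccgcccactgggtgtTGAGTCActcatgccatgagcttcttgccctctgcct
CEBPE +5.5 kb, chr14:23113772-23113852, found in p42 lists only, with a CEBP:AP1 match read on the minus strand: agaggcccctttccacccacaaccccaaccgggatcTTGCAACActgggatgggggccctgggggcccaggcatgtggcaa
CEBPE +6.3 kb, chr14:23112887-23112967, its neighbour with a peak in all 6 lists: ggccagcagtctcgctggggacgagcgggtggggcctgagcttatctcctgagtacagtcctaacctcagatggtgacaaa
CEBPE −2.3 kb, chr14:23121493-23121573, found in no p42 list: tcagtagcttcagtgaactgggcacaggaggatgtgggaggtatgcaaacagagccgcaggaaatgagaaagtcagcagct
CEBPB +1.6 kb, chr20:50192385-50192414, in the untranslated end of the gene, with a CEBP:ATF4 match: ggtttcgaagtTGATGCAAtcggtttaaac

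Of the 62 regions, 24 were found in each of the 6 lists and 20 in a single list, against 32.2% and 34.2% of all regions of the series. The loci differed in this. CEBPE held 12 such constant regions of 22 and CEBPB 11 of 28, whereas CEBPD held 1 of 12. A percentile of at least 50 in any list was reached by 15 regions of CEBPB, 15 of CEBPE and 2 of CEBPD (53.6%, 68.2% and 16.7% of their regions), against 43.8% over the series.

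**Figure D1:**
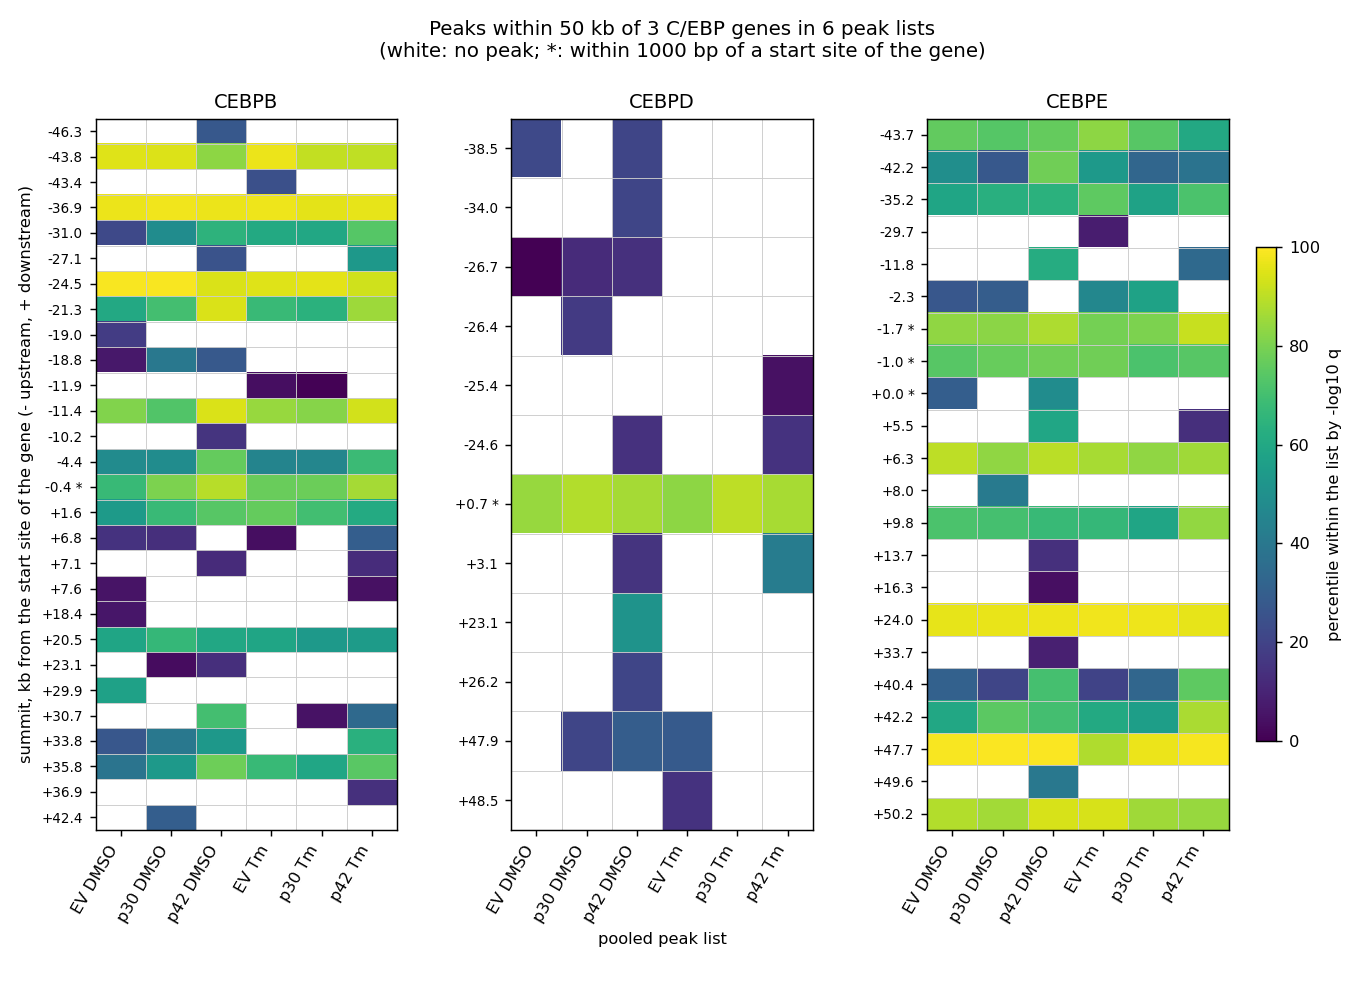
Percentile within each list (colour, 0 to 100 by −log10 q) of every region within 50 kb of CEBPB, CEBPD and CEBPE (rows, by kb from the start site) in the 6 pooled lists (columns); white means no peak and an asterisk marks regions within 1000 bp of a start site of the gene. CEBPB and CEBPE have bands of peaks in all 6 lists, and CEBPD has 1 such band, over the gene itself.

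In DMSO, 47 of the 62 regions had a peak in p42 cells, 35 in EV cells and 34 in p30 cells. Over the series it was 246210 of the 355394 regions in p42 cells, 179077 in EV cells and 199244 in p30 cells, so p42 DMSO had the most there too. A peak in p42 DMSO and none in p30 DMSO was found at 18 of the 52 regions with a peak in either (34.6%), against 30.8% over the series, and the reverse at 5 (9.62%), against 14.5%. Against EV DMSO, 18 of 53 regions had a peak in p42 DMSO alone, against 35.4% over the series, and 6 had one in EV DMSO alone, against 11.2%. The shares at the 3 loci together were thus close to those over the series.

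The regions split unevenly between the genes. CEBPD, with few and weak peaks, had 6 of 10 regions in p42 DMSO without a peak in p30 DMSO, CEBPE had 7 of 21 and CEBPB 5 of 21. With every list cut to its 187339 strongest peaks, the 18 regions of either comparison fell to 7 (20.8% over the series against p30 DMSO and 21.4% against EV DMSO), while the reverse counts were 6 for p30 DMSO (20%) and 8 for EV DMSO (20.1%). The excess of regions found in p42 DMSO alone was thus not seen in lists of equal length. Between p30 DMSO and EV DMSO, 5 regions of 40 had a peak in p30 DMSO alone (22.4% over the series) and 6 in EV DMSO alone (13.7%).

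Where both lists had a peak, the percentiles were compared by locus. They depend on the local background as well as on the tags at the summit. At CEBPE +6.3 kb, for instance, p42 DMSO had 44 tags over a background of 4.49, at a percentile of 89.6. EV DMSO had 31 tags over a background of 1.78, at 90.2. Of 13 CEBPB regions with a peak in p42 DMSO and EV DMSO, 7 were at least 20 points higher in p42 DMSO, against 22.8% over the series, and none was that much higher in EV DMSO, against 6.6%. For CEBPE it was 2 of 13 and for CEBPD 0 of 3. Ranked in lists of the same size, the CEBPB count fell to 3 of 13, and the share over the series to 12.5%. Against p30 DMSO, 4 of 14 CEBPB regions, 2 of 12 CEBPE regions and 0 of 3 CEBPD regions were at least 20 points higher in p42 DMSO (18.2% over the series), and none in p30 DMSO (8.23%). With lists of the same size it was again 4 CEBPB regions, of 13, where the share over the series was 12.4%. Between p30 and EV in DMSO, 2 of 29 regions of the 3 loci stood that much higher in p30 (13.4% over the series) and 1 in EV (6.82%).

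The p42 lists of both treatments can be set against the 4 other lists at the 24 regions found in all 6. Both p42 lists stood higher than the 4 others at 6 of 11 CEBPB regions, 2 of 12 CEBPE regions and 0 of 1 CEBPD region, against 24.4% over the series. These were CEBPB −31.0, −21.3, −11.4, −4.4, −0.4 and +35.8 kb and CEBPE −1.7 and +40.4 kb. Both stood lower at 2 CEBPB regions (−43.8 and −24.5 kb) and at none of the other genes, against 9.44% over the series. With lists of the same size the higher counts were 5 of 11 for CEBPB and 1 of 12 for CEBPE, with 14.6% over the series.

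**Figure D2:**
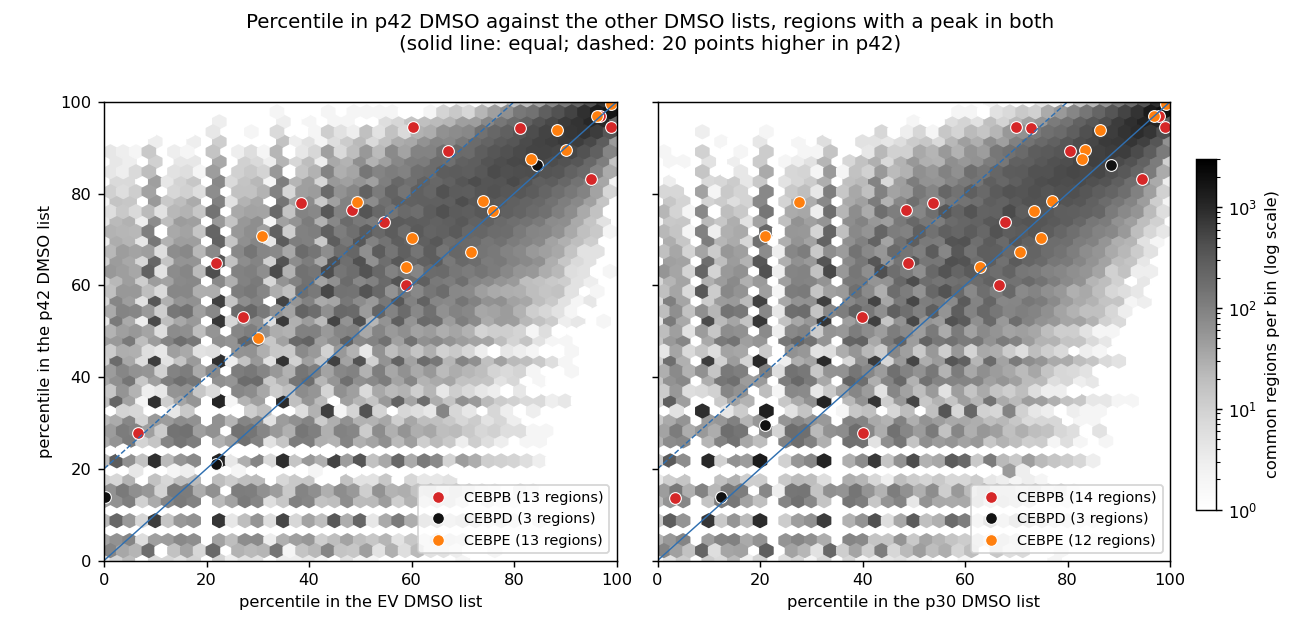
Percentile in the p42 DMSO list (y axis) against that in the EV DMSO list (left) and the p30 DMSO list (right) for regions with a peak in both lists; grey bins count all common regions on a log scale, and coloured points are the regions of CEBPB (13 and 14), CEBPD (3 and 3) and CEBPE (13 and 12). On the left 7 CEBPB points, and on the right 4, lie on or above the dashed line that marks 20 points higher in p42.

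CEBPB had a single region at its start site, chr20:50190379-50192179, which covered most of its only exon. A start site of CEBPB-AS1 lay within 1000 bp of this region. The values that follow are those of the CEBPB start site region. Its percentile was 67.2 in EV DMSO, 80.4 in p30 DMSO and 89.2 in p42 DMSO. With tunicamycin it was 77.0 in EV, 77.4 in p30 and 86.7 in p42. The p42 lists were thus the highest under either treatment, and EV DMSO the lowest of all 6.

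The summit of this promoter held 26 tags in EV DMSO, 35 in p30 DMSO and 45 in p42 DMSO, then 34, 33 and 41 in EV, p30 and p42 with tunicamycin. Per depth this was 11.7 (95% Poisson interval 7.63 to 17.1) in EV DMSO and 15 (10.9 to 20.1) in p42 DMSO. The ratio of p42 DMSO to EV DMSO was 1.28, with an interval of 0.775 to 2.17 that covers counting error only and includes 1. The difference in tags was therefore not detectable at this depth, although the rank moved by 22 points.

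Of the upstream CEBPB regions that stood higher in both p42 lists, CEBPB −4.4 kb (chr20:50186319-50186492), in an intron of CEBPB-AS1, was chosen by the rule for the largest difference between p42 and p30 DMSO. Its percentile was 48.4 in EV, 48.5 in p30 and 76.3 in p42 in DMSO, and 45.2, 46.0 and 68.3 with tunicamycin. The p42 values did not overlap those of the other 4 lists.

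The summit of CEBPB −4.4 kb held 28 tags in p42 DMSO against 17 in p30 DMSO, a ratio per depth of 1.46 (0.77 to 2.84). With tunicamycin p42 cells had 24 tags and p30 cells 16, a ratio of 1.36 (0.693 to 2.74). Both intervals include 1.

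The 3 others upstream, like those of the preceding count, were picked with their values known. CEBPB −21.3 kb (chr20:50169444-50169617), in an exon of the non-coding gene ENSG00000234698, had percentiles of 60.2, 70.0 and 94.5 in EV, p30 and p42 in DMSO. With tunicamycin these were 67.9, 64.0 and 85.4. In tags the DMSO lists had 15, 19 and 34, and p42 to p30 was 1.58 (0.878 to 2.94).

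CEBPB −11.4 kb (chr20:50179313-50179632), between genes, had percentiles of 81.2, 73.0 and 94.2 in EV, p30 and p42 in DMSO, and 84.6, 81.8 and 93.0 with tunicamycin. It held 18, 15 and 30 tags in DMSO, with p42 to p30 at 1.77 (0.923 to 3.54). In lists of the same size the 2 regions kept the p42 lists on top, at 92.6 and 82.7 for −21.3 kb and at 92.2 and 91.7 for −11.4 kb.

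CEBPB −31.0 kb (chr20:50159485-50159938), also between genes, was a weaker region with 6 to 16 tags. Its percentile was 21.9, 48.8 and 64.8 in EV, p30 and p42 in DMSO, and 60.8, 59.8 and 73.5 with tunicamycin. The ratio per depth of p42 to p30 was 1.28 (0.505 to 3.39) in DMSO, so that its order, too, was within counting error.

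The strongest regions of the CEBPB window did not share this order. CEBPB −43.8 kb, in an intron of PEDS1, had percentiles of 95, 94.6 and 83.1 in EV, p30 and p42 in DMSO, with p42 the lowest. CEBPB −36.9 kb, at the PEDS1 promoter, stood between 96.0 and 97.9 in all 6 lists. CEBPB −24.5 kb, at the start sites of LINC01275 and ENSG00000234698, stood between 92.8 and 99.1, and its lowest values, 94.5 in DMSO among the untreated lists and 92.8 with tunicamycin, were those of p42 cells. So p42 lists ranked neighbouring regions of 1 window both higher and lower than the other lists.

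Downstream of CEBPB lay a group between +29.9 and +35.8 kb, in intergenic DNA. CEBPB +30.7 kb (chr20:50221512-50221822) had a percentile of 70.1 with 17 tags in p42 DMSO, 34.0 with 9 tags in p42 Tm and 4.69 with 5 tags in p30 Tm, and no peak in the other 3 lists. CEBPB +33.8 kb had percentiles of 27.1, 39.9 and 53.2 in EV, p30 and p42 in DMSO. After tunicamycin it had a peak only in p42 cells, at 63.3.

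CEBPB +35.8 kb (chr20:50226567-50227017), also picked with its values known, had percentiles of 38.4, 53.7 and 77.9 in EV, p30 and p42 in DMSO and of 67.2, 59.2 and 74.6 with tunicamycin. It is the region with the AP-1 match TGAGTCA shown above, 7 bp from the summit. CEBPB +29.9 kb went the other way, with a percentile of 57.1 and 11 tags in EV DMSO and no peak in the other 5 lists. CEBPB −27.1 kb, in an exon of LINC01275, had a peak in the p42 lists only, at 25.6 in DMSO and 53.2 with tunicamycin.

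CEBPB +1.6 kb (chr20:50192311-50192494) lay over the untranslated end of the gene, 3′ of the coding sequence, and within 1000 bp of a start site of CEBPB-AS1. A composite C/EBP-ATF element 3′ of the CEBPB coding sequence is known to respond to ER stress and amino acid shortage through ATF4. The region held the letters TGATGCAA, the CEBP:ATF4 motif, at chr20:50192396-50192403, 44 bp from the summit. Whether these letters were bound was not measured by ATAC-seq.

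The percentile of CEBPB +1.6 kb went with tunicamycin from 54.6 to 76.3 in EV cells, went from 67.8 to 69.6 in p30 cells and from 73.9 to 61.2 in p42 cells. The tags were 21 and 33 in EV, 27 and 28 in p30, and 31 and 25 in p42 cells, DMSO first. Per depth the ratio of Tm to DMSO was 1.39 (0.781 to 2.53) in EV, 1.19 (0.677 to 2.1) in p30 and 0.951 (0.538 to 1.66) in p42 cells. All intervals include 1 and overlap one another, so these shifts of rank were within counting error.

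CEBPD is a gene of a single exon in an otherwise quiet stretch between SPIDR and PRKDC. Its promoter and gene body were covered by 1 region of 1964 bp, chr8:47737167-47739130, with the summit in the coding exon. The percentile was 84.6 in EV, 88.6 in p30 and 86.4 in p42 cells in DMSO, and 83.1, 90.2 and 87.0 with tunicamycin. The 6 lists thus lay within a narrow band, and the p30 lists were the highest under either treatment.

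At its summit the CEBPD region held 34, 38 and 41 tags in EV, p30 and p42 in DMSO and 35, 38 and 39 with tunicamycin. The ratio per depth of p42 to p30 was 0.955 (0.599 to 1.53) in DMSO and 0.931 (0.58 to 1.5) with tunicamycin. With tunicamycin against DMSO it was 0.912 (0.552 to 1.51) in EV, 1.15 (0.714 to 1.85) in p30 and 1.12 (0.704 to 1.78) in p42 cells. No difference between lists was detectable at this depth.

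The other 11 regions of CEBPD were weak. CEBPD +3.1 kb (chr8:47734953-47735141), in an intron of SPIDR, had a peak in the p42 lists only, at percentiles of 15.2 with 16 tags in DMSO and 41.8 with 19 tags with tunicamycin. CEBPD +23.1 kb, in the same gene, had a peak of 9 tags at 51.5 in p42 DMSO alone. CEBPD +47.9 kb had 6 tags in p30 DMSO, 7 in p42 DMSO and 7 in EV Tm. Apart from the gene itself, the highest percentile of any CEBPD region was thus 51.5, and 6 of the 12 regions were in a single list.

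**Figure D3:**
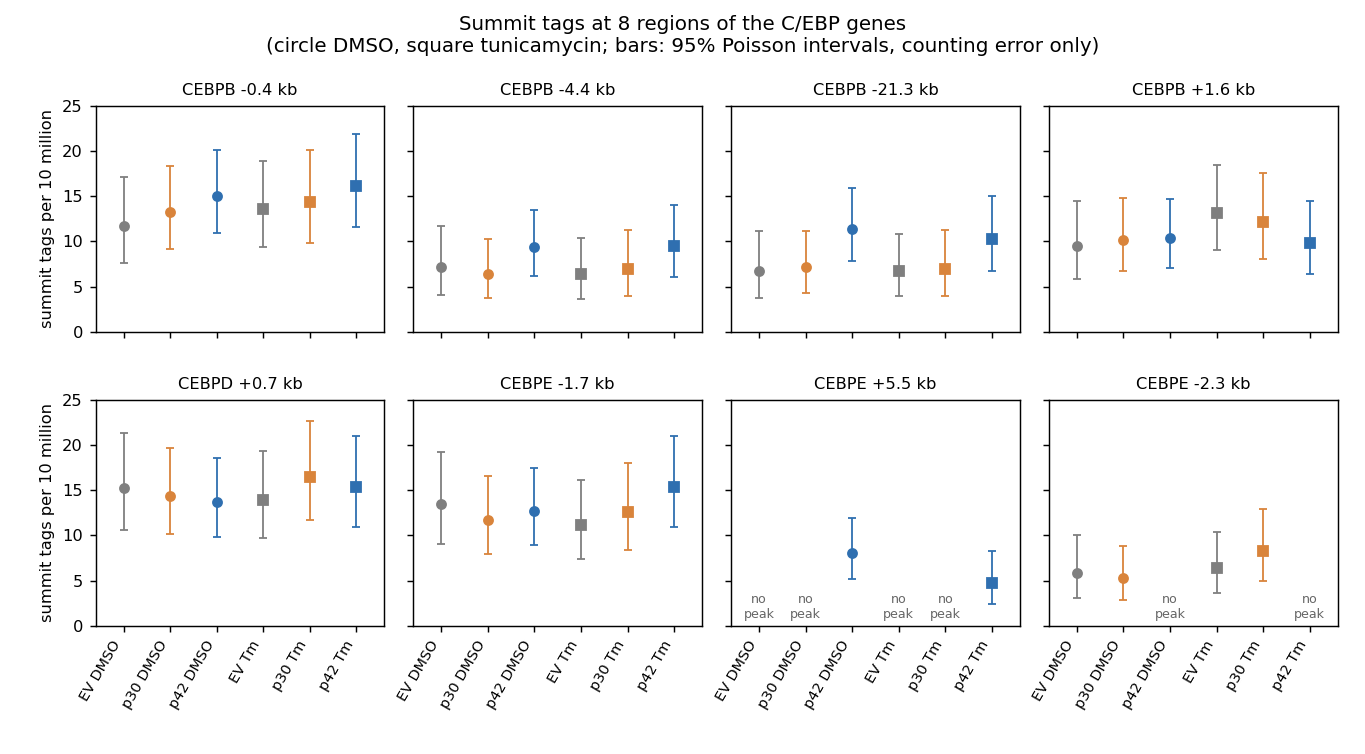
Summit tags per 10000000 tags of estimated depth (y axis) in the 6 pooled lists (x axis) at 8 regions of the 3 genes; circles are DMSO, squares tunicamycin, and bars are 95% Poisson intervals for counting error only. The CEBPB start site is lowest in EV DMSO (11.7) and the CEBPD gene lies between 13.7 and 16.5, with intervals that overlap throughout; CEBPE +5.5 kb has points in p42 lists only and CEBPE −2.3 kb in none of them.

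CEBPE has 3 annotated start sites and 3 regions within 1000 bp of them. The region over the RefSeq start site, CEBPE +0.0 kb (chr14:23119174-23119293), had a peak in EV DMSO, at a percentile of 30.0 with 14 tags, and in p42 DMSO, at 48.5 with 20 tags. The p30 DMSO list and the 3 tunicamycin lists had none. The ratio per depth of p42 to EV was 1.06 (0.509 to 2.27), an interval that includes 1.

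The RefSeq promoter of CEBPE (GRCh38.p14) was printed because the peak at its start site came and went between lists. It held 1 AP-1 match, in capitals in the 250 bases before the start site on the minus strand. The AP-1 match lies outside CEBPE +0.0 kb, which ends at chr14:23119293 and overlaps only the printed bases nearest the start site. Of 35116 RefSeq promoters of 300 bases, 4.95% held this motif.
CEBPE promoter, chr14:23119256-23119505: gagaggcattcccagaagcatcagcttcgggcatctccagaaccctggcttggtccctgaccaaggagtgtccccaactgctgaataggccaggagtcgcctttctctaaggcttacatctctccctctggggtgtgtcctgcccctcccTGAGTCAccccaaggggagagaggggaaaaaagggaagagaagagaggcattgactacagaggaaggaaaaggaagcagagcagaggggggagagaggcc

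Further upstream the CEBPE promoter was open in every list. CEBPE −1.0 kb (chr14:23119650-23120347) had percentiles of 74.0, 76.9 and 78.5 in EV, p30 and p42 in DMSO and of 78.4, 71.7 and 74.2 with tunicamycin. CEBPE −1.7 kb (chr14:23120572-23121156) had 83.4, 82.7 and 87.5 in DMSO and 79.0, 80.2 and 91.5 with tunicamycin. The second was highest in the p42 lists under either treatment, but in lists of the same size p42 DMSO was at 83 and EV DMSO at 83.4. Its ratio of tags per depth in p42 to EV was 0.94 (0.567 to 1.57) in DMSO and 1.38 (0.825 to 2.32) with tunicamycin.

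CEBPE −2.3 kb (chr14:23121418-23121641), the next region upstream, had the opposite pattern. Its percentile was 27.1 in EV DMSO, 29.3 in p30 DMSO, 46.3 in EV Tm and 57.6 in p30 Tm, with 13, 14, 16 and 19 tags, and neither p42 list had a peak. It was the only 1 of the 62 regions with a peak in the 4 other lists and none in the p42 lists, against 0.802% of all regions of the series.

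Downstream of CEBPE lies the stretch in which, in mouse, an enhancer needed for Cebpe expression in maturing granulocytes is known. CEBPE +6.3 kb (chr14:23112665-23113175) had percentiles of 90.2, 83.3 and 89.6 in EV, p30 and p42 in DMSO and of 87.0, 83.4 and 85.7 with tunicamycin. With 31, 26 and 44 tags in DMSO, it was lowest in p30 cells, and p42 to p30 was 1.5 (0.902 to 2.53). The adjoining CEBPE +5.5 kb (chr14:23113323-23113998), with the summit less than 1 kb closer to the gene, had a peak in the p42 lists only, at 59.2 with 24 tags in DMSO and at 13.6 with 12 tags with tunicamycin.

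CEBPE +5.5 kb held the CEBP:AP1 motif TGTTGCAA on the minus strand, 57 bp from its summit. Its tags per depth with tunicamycin were 0.589 of those in DMSO (0.269 to 1.23). It was 1 of 6 regions, 2 at each gene, that were covered by both p42 lists and no other list, against 4.58% of all regions of the series. The others were CEBPB −27.1 kb, CEBPB +7.1 kb, CEBPD +3.1 kb, CEBPD −24.6 kb and CEBPE −11.8 kb, the last in an intron of SLC7A8 at 62.0 in DMSO and 34.0 with tunicamycin.

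CEBPE −42.2 kb (chr14:23160993-23161576), in an intron of SLC7A8, showed the largest difference between p42 and p30 DMSO of the CEBPE window. Its percentile was 49.3 in EV, 27.6 in p30 and 78.2 in p42 cells in DMSO, and 53.6, 33.2 and 38.2 with tunicamycin. The p42 DMSO value stood apart from the other 5. It held 22 tags in p42 DMSO and 8 in p30 DMSO, a ratio per depth of 2.43 (1.04 to 6.32), the only one of the p42 to p30 ratios given here whose interval did not include 1. It was picked as the largest difference among 12 regions, so the interval does not allow for that choice.

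The 3 highest regions of the CEBPE window belonged to other genes. CEBPE +24.0 kb, in a coding exon of ACIN1 and near start sites of ACIN1 and C14orf119, stood between 96.1 and 97.8 in all lists. CEBPE +47.7 kb and CEBPE +50.2 kb, both at start sites of ACIN1, stood between 88.0 and 99.6 and between 84.4 and 93.9. At none of them were both p42 lists above or below the 4 others.

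In each of the 3 lines more regions had a peak in DMSO alone than with tunicamycin alone. In p42 cells, 15 of 51 regions with a peak in either list had one in DMSO alone (27.5% over the series) and 4 had one with tunicamycin alone (11.6%). In p30 cells it was 9 of 36 in DMSO alone (23.6%) and 2 with tunicamycin alone (13.2%). In EV cells it was 9 of 40 (16.3%) and 5 (18.8%).

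Among regions with a peak in both p42 lists, 4 of 32 were at least 20 points higher in DMSO (15.9% over the series) and 2 at least 20 points higher with tunicamycin (5.45%). The 4 were CEBPB +30.7 kb, CEBPE +5.5 kb, CEBPE −11.8 kb and CEBPE −42.2 kb, and the 2 were CEBPB −27.1 kb and CEBPD +3.1 kb. In EV cells 3 of 26 regions were at least 20 points higher with tunicamycin, a share of 11.5% both here and over the series, and none in DMSO (8.15%). The 3 were CEBPB −31.0, +1.6 and +35.8 kb, where the percentile of EV cells went from 21.9 to 60.8, from 54.6 to 76.3 and from 38.4 to 67.2. Per depth, the ratios of Tm to DMSO were 1.62 (0.55 to 5.35), 1.39 (0.781 to 2.53) and 1.48 (0.605 to 3.82). All 3 intervals include 1.

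After tunicamycin, 11 of 38 regions had a peak in p42 cells and none in p30 cells (26.1% over the series), and 2 the reverse (15.1%). Of 25 regions with a peak in both, 6 were at least 20 points higher in p42 Tm (16.5%), 3 of them at CEBPB and 3 at CEBPE, and none in p30 Tm (8.84%). CEBPB −21.3 kb, CEBPB −4.4 kb and CEBPE +40.4 kb were that much higher in both treatments, by 21.4, 22.4 and 41.9 points with tunicamycin and by 24.5, 27.9 and 49.7 points in DMSO.

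Against EV cells with tunicamycin, 11 of 42 regions had a peak in p42 cells alone (24.2% over the series) and 6 in EV cells alone (17.2%). Where both lists had a peak, 2 of 12 CEBPB regions, 2 of 12 CEBPE regions and 0 of 1 CEBPD region were at least 20 points higher in p42 Tm (13.9%), and 1 CEBPE region was that much higher in EV Tm (10.4%). In DMSO the CEBPB count was 7 of 13, but 3 of 13 in lists of the same size, and no such count was made with tunicamycin. The estimated depth was 22200000 tags in EV DMSO and 30000000 in p42 DMSO, against 25100000 in EV Tm and 25400000 in p42 Tm. Whether depth bears on the unlike counts of the 2 treatments was not tested, and neither was the difference between the treatments.

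The promoters of 3 related genes were ranked in the same way. CEBPA stood between 74.6 and 85.4, CEBPG between 88.6 and 95.5, and DDIT3, which encodes the ER stress factor CHOP, between 84.1 and 89.7. The range from the lowest to the highest list was 67.2 to 89.2 for CEBPB, 83.1 to 90.2 for CEBPD and 79.0 to 91.5 for the best region of CEBPE. CEBPB thus had the widest range of these 6 promoters, and its lowest value, in EV DMSO, was the lowest of all.

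The motifs searched were CEBP (TTGCGCAA, TTGCACAA, TTGTGCAA or TTGTACAA), CEBP:AP1 (TGTTGCAA), CEBP:ATF4 (TGATGCAA), AP-1 (TGAGTCA or TGACTCA) and CRE (TGACGTCA), on both strands. TTGCACAA and TTGTGCAA, like TGAGTCA and TGACTCA, are each other on the opposite strand. Of the 62 regions, 7 held a match, or 11.3%, against 13.6% of all regions with a window of the same length. An AP-1 match was found at 4 (6.45% against 9.48%), a CEBP match at 1 (1.61% against 1.85%), a CEBP:AP1 match at 1 (against 1.17%), a CEBP:ATF4 match at 1 (against 1.25%) and a CRE match at none (against 0.217%).

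The AP-1 matches lay at CEBPB −24.5 kb, CEBPB −18.8 kb, CEBPB +35.8 kb and CEBPE +40.4 kb, the last in a coding exon of ACIN1. CEBPE +40.4 kb had percentiles of 30.9, 21.0 and 70.7 in EV, p30 and p42 in DMSO and of 20, 33.2 and 75.1 with tunicamycin, so that both p42 values lay above the other 4. The CEBP match lay at CEBPD +23.1 kb. The promoters of CEBPB and CEBPD and the regions −21.3, −11.4 and −4.4 kb of CEBPB held none of these exact letters near their summits.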

How the data were processed

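ATAC-seq libraries were made from nuclei of 50000 cells per replicate. Per the labels and the methods, the authors used Trim Galore 0.6.6 for trimming, Bowtie2 2.4.4 for alignment (hg38), Picard for duplicate removal and MACS2 for the peaks. These steps are described with those for ChIP-seq, and a Tn5 shift is not given in the sources used here. It would move summits by a few bp. The authors called the deposited lists on pooled replicates.

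The deposited fold is a ratio of summit pileup to local background. The deposited −log10 p and −log10 q, with a lowest −log10 q of 1.30, refer to that background too. The summit column of the deposited lists is a distance in bp. None is normalized between lists. Fold and p were solved for the whole pileup, within 0.001 of −log10 p for 100% of peaks. The solution was tested on simulated data. Depth, 22200000 to 30000000 tags, was the lowest background multiplied by 2700000000 bp over the width of the shortest peak (57 to 60 bp). Poisson intervals and conditional exact intervals of ratios (95%) cover counting error only.

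Peaks of the autosomes, X and Y that overlapped or touched were merged. Percentiles rank −log10 q within a list. Annotation was GENCODE 44. Regions described singly were those within 1000 bp of a start site or over the gene, the 3 highest others per gene, those at a percentile of at least 50 in a list and absent from another, and per gene the largest difference between p42 and p30 DMSO and between p42 Tm and DMSO. Others are named as chosen after their values were seen. Another marker gene examined is not reported here. The members and lists were chosen with earlier results of these data known. Alternatives were a −log10 q of at least 10, equal list sizes, a depth-scaled threshold, 50% overlap, windows of 20 and 100 kb, merging of 2 lists only, ranking by fold, and ranking among peaks near start sites. Python 3.11.15, numpy 2.4.6, scipy 1.17.1 and matplotlib 3.10.9 were used.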

Additional observations from a re-analysis of the deposited data

Results flagged for a closer look

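At 3 regions the peak went in opposite directions with tunicamycin in different lines, gained in one and lost in another. The difference was not tested, and each peak is weak. CEBPB +6.8 kb was gained in p42 cells, at a percentile of 29.7 in p42 Tm, and lost in p30 cells, from 13.5 in p30 DMSO. CEBPB +7.6 kb was gained in p42 cells, at 4.51, and lost in EV cells, from 5.3. CEBPD +47.9 kb was gained in EV cells, at 28.5, and lost in p30 cells, from 21.0, and in p42 cells, from 29.6. Such opposite changes were found at 4.84% of the 62 regions and at 6.66% of all regions of the series.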

How the results depend on the processing

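No paired analysis was possible because the lists pool the replicates and carry no replicate numbers, and for the same reason no replicate could be left out. The counts of regions with a peak in one list and none in the other moved as follows, while 22 of 42 alternative values stayed within 1.5 times of the reported count. A −log10 q of at least 10 was asked only of the list with the peak, while any peak, however weak, counted as present in the other list. Under this rule p42 DMSO without p30 DMSO fell from 18 to 1, p42 DMSO without EV DMSO from 18 to 1, and the other 4 counts to 0. The rule removes regions with a strong peak in one list and a weak peak in the other. Over the series these 2 shares went from 30.8% to 1.72% and from 35.4% to 2.44%. With equal list sizes, p42 DMSO without p30 DMSO, without EV DMSO and without p42 Tm each fell to 7 (20.8%, 21.4% and 19% over the series), against 6, 8 and 3 in the reverse direction (20%, 20.1% and 14.6%), so that the excess in p42 DMSO over p30 and EV DMSO was lost. Windows of 20 kb gave 8 (p42 without p30 DMSO), 3 (p30 without p42 DMSO), 7 (p42 without EV DMSO), 2 (p42 Tm without DMSO) and 5 (p42 DMSO without Tm). Windows of 100 kb gave 35, 13, 34, 15 and 26 for these, and 13 for EV without p42 DMSO. The count at least 20 points higher in p42 DMSO than in EV DMSO was 9, and 5 with lists of the same size, an alternative chosen after seeing the data. The count of regions with both p42 lists above the 4 others was 8, and 6 in that ranking. The depth-scaled threshold, the 50% overlap and merging of 2 lists moved no count by over 1.5 times. Every promoter percentile was lower when ranked by fold, by up to 31.1 points, and among peaks near start sites, by up to 16.3, and 17 of 26 were lower in lists of the same size, by up to 18.3. Depth limits all of this: most regions with a peak in one list only held few tags, and no peak does not mean closed chromatin.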
